A study of Mus musculus with 150 samples.

Results

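Purinergic receptors, the cell surface proteins that respond to extracellular nucleotides, are described here through 7 genes: the ATP-gated ion channel genes P2rx2, P2rx3, P2rx4, P2rx5 and P2rx6, and the G-protein-coupled receptor genes P2ry1 and P2ry2. They were taken by name from a table of 54082 genes, of which 34741 had at least 1 count. The table holds Smart-seq libraries of 150 single somatosensory neurons from CD1 mice of Charles River, with 1 cell per library. The neurons were labelled by the skin they innervate: 45 cells by hairy skin, 1 by both kinds, which entered no skin comparison, and the others by glabrous (hairless) skin. The mice came from 10 litters, and were 4 days old for 33 of the cells and 5 days old for the rest. All cells were of 1 strain, with no treatment or mutant allele in the labels. The litter was the replicate, cells of a litter were summed before any test, and p-values measure the spread between litters. Totals ran from 395811 to 1053854 counts per cell, with a median of 734269. No source used here says how the neurons were traced or picked.

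ATP leaves cells that are stretched, damaged or active, and sensory endings in skin meet it there. The P2rx genes encode subunits that assemble in threes into a cation channel opened by ATP, so the subunits a neuron makes set which channels it can build. The P2ry1 product responds mainly to ADP and the P2ry2 product to ATP and UTP. Both signal through Gq proteins and phospholipase C. P2rx3 is the channel subunit long used to mark small sensory neurons, and it can assemble with the P2rx2 subunit into a channel that desensitizes more slowly.

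Promoter sequence was listed for 4 of the 7 genes (P2rx4, P2rx6, P2ry1 and P2ry2, which has 2 starts), in RefSeq's GRCm38.p6 annotation, as 250 bases before to 50 after the start. P2rx2, P2rx3 and P2rx5 had no entry. The 3 printed here belong to genes that were each higher in a different neuron type below. They lie at chr16:17561635-17561934 on the plus strand (P2rx6), chr3:61002535-61002834 on the plus strand (P2ry1) and chr7:101011949-101012248 on the minus strand (P2ry2). Capitals mark matches, on either strand, to the GC box (GGGCGG) or the TATA box (TATAAA). The RUNX core (TGTGGT) was searched too and matched in none of them.
P2rx6: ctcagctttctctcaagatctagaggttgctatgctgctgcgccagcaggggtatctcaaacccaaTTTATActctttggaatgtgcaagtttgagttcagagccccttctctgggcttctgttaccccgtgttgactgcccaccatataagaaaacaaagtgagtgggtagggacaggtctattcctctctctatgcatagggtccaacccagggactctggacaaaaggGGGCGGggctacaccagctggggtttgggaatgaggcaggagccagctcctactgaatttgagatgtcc
P2ry1: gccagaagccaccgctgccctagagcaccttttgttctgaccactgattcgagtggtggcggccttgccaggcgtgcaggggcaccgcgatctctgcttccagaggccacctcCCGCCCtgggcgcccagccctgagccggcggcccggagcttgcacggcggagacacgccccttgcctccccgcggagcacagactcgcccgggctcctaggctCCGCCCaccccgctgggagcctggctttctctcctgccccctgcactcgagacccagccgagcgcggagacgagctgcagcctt
P2ry2: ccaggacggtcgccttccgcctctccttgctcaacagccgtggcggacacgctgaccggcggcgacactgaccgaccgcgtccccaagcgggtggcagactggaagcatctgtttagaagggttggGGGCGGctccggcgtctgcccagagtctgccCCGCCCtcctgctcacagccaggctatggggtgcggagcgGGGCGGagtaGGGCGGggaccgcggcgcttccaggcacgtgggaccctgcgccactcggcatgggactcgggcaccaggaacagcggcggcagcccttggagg
The P2rx4 promoter had 18 CG pairs, 60.3% GC and 1 GC box. Both G-protein-coupled receptor genes had GC-rich promoters, with 25 CG pairs and 70.7% GC for P2ry1 and 30 CG pairs and 71% GC for P2ry2. The P2rx6 promoter had 3 CG pairs and 51.3% GC, against a median of 7 CG pairs and 52.7% GC over all 27025 listed promoters. The GC box was found once in P2rx6, 2 times in P2ry1 and 4 times in P2ry2, and it occurs in 35.9% of all listed promoters. The TATA letters in P2rx6 occur in 14.2% of all promoters and the RUNX core in 16.9%. A match is a run of letters and not a shown binding site.

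Neurons were sorted into types by 4 marker genes, none of them purinergic, using CPM (the count of a gene scaled to a fixed total per cell). The Tafa4 gate held 23 cells with at least 100 CPM of Tafa4, a gene of C-fibre touch neurons. The Mrgprd gate held 9 further cells with at least 100 CPM of Mrgprd, a receptor gene of non-peptidergic nociceptors. The other cells were split at 500 CPM of Nefh, the heavy neurofilament gene of large myelinated neurons, and of Calca, which encodes the neuropeptide CGRP. This gave a Nefh gate of 65 cells, a Nefh-Calca gate of 33 and a Calca gate of 12, and left 8 cells ungated. Gates are ranges of marker level rather than proven types, and 16 of the 150 cells lay within 1.5 times of a cut. The summed level of 7 sensory neuron markers had a median of 5029 to 8651 CPM in the gates and of 677 CPM in the ungated cells, which entered no neuron type test. Of the 23 Tafa4-gate cells, 9 were also over the Nefh or Mrgprd cut. The 6 Schwann cell markers all had medians above 0 in every gate, and their summed level differed between gates, with a median of 1424 CPM in the Nefh gate (52.5 to 10124), 1515 in the Nefh-Calca gate (446 to 3963), 2038 in the Mrgprd gate (1377 to 9716), 4077 in the Calca gate (841 to 13881) and 4262 in the Tafa4 gate (1207 to 22274). The 6 satellite glia markers, all with medians above 0, summed to a median of 268 CPM in the Nefh-Calca gate (21.8 to 3652) and of 989 to 1267 CPM in the other gates (15.4 to 7629 over their cells). The 5 fibroblast markers summed to a median of 141.2 CPM in the Nefh gate (2.57 to 4526), 232 in the Nefh-Calca gate, 236 in the Tafa4 gate, 538 in the Mrgprd gate and 642 in the Calca gate (230.2 to 2891). All had medians above 0 but for Lum in the Nefh-Calca gate. The part of these other cells in the differences below was not tested.

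P2rx4 and P2rx3 were seen in nearly every neuron and P2rx2 in a minority. Of the 150 cells, 98.7% had at least 1 count of P2rx4 (exact Clopper-Pearson 95% interval 95.3 to 99.8) and 94.7% of P2rx3 (89.8 to 97.7). P2ry2 was detected in 82% (74.9 to 87.8), P2ry1 in 81.3% (74.2 to 87.2) and P2rx6 in 78% (70.5 to 84.3). Detection was lower for P2rx5, at 66.7% (58.5 to 74.1), and lowest for P2rx2, in 48 cells or 32% (24.6 to 40.1). These intervals cover counting error only. Thinning every cell to 395811 counts left the order of the least detected genes in place, with 28.7% for P2rx2 and 62.7% for P2rx5. The 8 ungated cells were low in neuron markers and had a median of 10617 detected genes, against 14183.5 over all cells. Among them P2rx2 was in 0 of 8, P2rx3, P2rx5 and P2ry1 in 1 of 8, P2rx6 and P2ry2 in 2 of 8 and P2rx4 in 7 of 8. P2rx4 was thus the member detected in most of these cells, as it was over all 150 cells. Its product is known from immune and glial cells as well as neurons, and the source of its RNA here was not tested.

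On a scale of mean CPM per kilobase of exon over the 150 cells, the order of levels was P2rx3 (54), P2ry1 (11.1), P2ry2 (7.72), P2rx4 (6.21), P2rx6 (4.58), P2rx5 (3.11) and P2rx2 (1.08). No source used here says whether the authors had already corrected for transcript length, so this order between genes may shift. All 48 cells with P2rx2 also had P2rx3, and all 48 had P2rx4. P2rx3 and P2rx4 were seen in nearly every cell, so this overlap is not specific to P2rx2 and P2rx3. The Spearman correlation of P2rx2 with P2rx3 was 0.20 over the 150 cells. It was -0.005 within the Nefh gate, 0.17 within the Nefh-Calca gate and 0.15 within the Tafa4 gate. A neuron held a median of 6 of the 7 members, and 21 cells held all 7. Cells of the Calca gate held a median of 4, the lowest of any gate, and none of its 12 cells held more than 5.

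**Figure D1:**
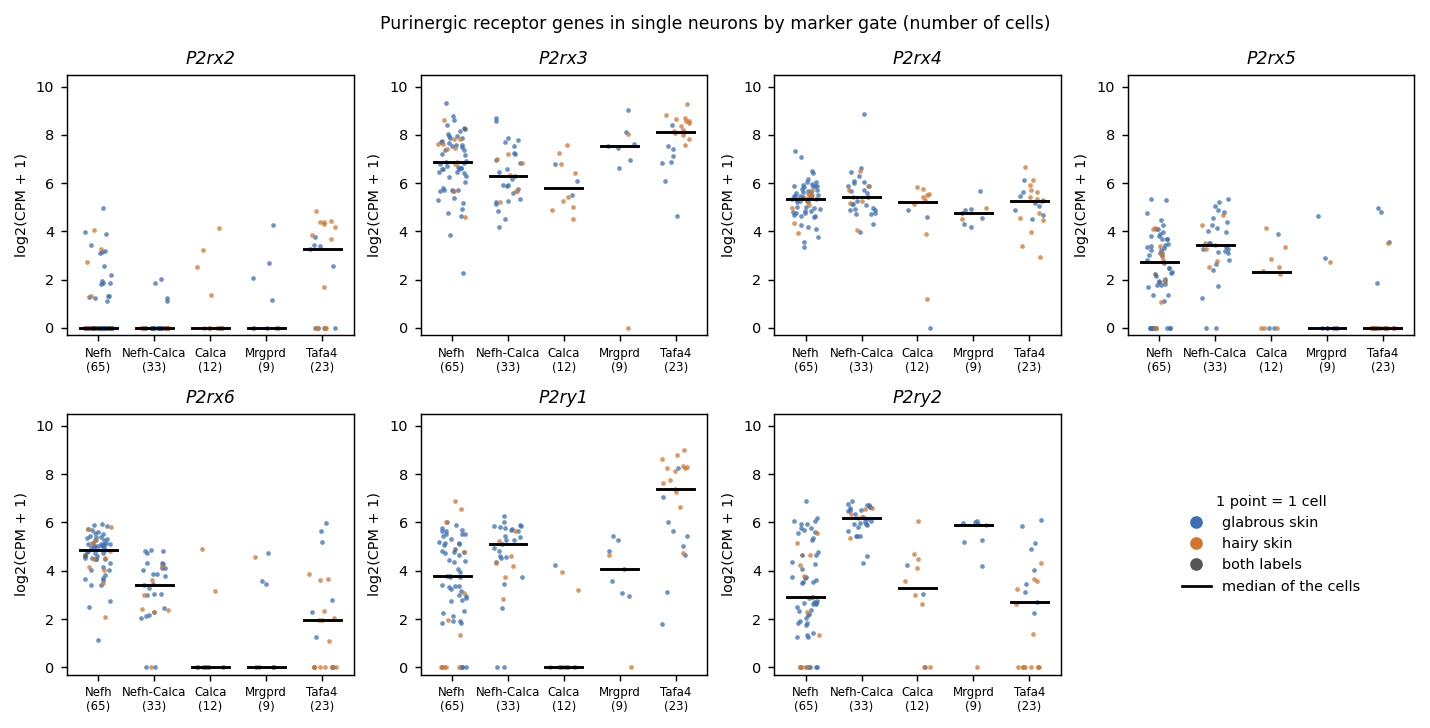
Level of each receptor gene as log2(CPM + 1) in single neurons of the 5 marker gates, with 1 point per cell coloured by skin label and a black line at the median. P2ry1 and P2rx3 sit highest in the Tafa4 gate, P2rx6 in the Nefh gate and P2ry2 in the Nefh-Calca gate, while the P2rx4 medians lie between 26.1 and 41.5 CPM.

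P2ry1, the ADP receptor gene at chr3:61002795-61008982 (mm10, plus strand), was the member that differed most between neuron types. Its median per cell was 164 CPM in the Tafa4 gate (2.5 to 514), 33.4 in the Nefh-Calca gate (0 to 75.4), 15.8 in the Mrgprd gate (0 to 42.3), 12.8 in the Nefh gate (0 to 119.02) and 0 in the Calca gate (0 to 17.8). It was detected in 23 of 23 Tafa4-gate cells and in 3 of 12 Calca-gate cells. For testing, cells were summed per litter and gate where at least 2 were present, which gave 27 sums from 10 litters. In such sums, fewer cells with a transcript and less of it per cell cannot be told apart. The 7 Tafa4 sums of P2ry1 ran from 42.5 to 333 CPM around a median of 239 (mean 189 ± 119.3, SD, n = 7), the 9 Nefh sums from 13.6 to 36.1 and the 7 Nefh-Calca sums from 19.9 to 40.3. The 4 Calca sums were 2.86 (litter E_F_G), 0 (L), 0 (M) and 4.59 CPM (P_Q). No Calca sum reached the lowest sum of any other gate, and no Tafa4 sum fell to the highest sum of another gate. How many of all genes had sums set apart in this way, here or for the members below, was not counted.

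Against the mean of the other gates, P2ry1 was higher in the Tafa4 gate by 3.85 ± 0.39 (log2 change ± SE) with an edgeR quasi-likelihood adjusted p of 2.1e-06, and it was above the litter's other gates in 7 of 7 litters. In the Calca gate it was lower by -4.81 ± 0.71 (edgeR adjusted p = 0.000327), in 4 of 4 litters. Set directly against each other in the same fit, the Calca gate was below the Tafa4 gate by -6.50 ± 0.74. With 2 of the 4 Calca sums at 0, the size of these changes depends on the prior count. The Calca gate is also part of the mean that the Tafa4 and Nefh gates were set against. In the Nefh gate the P2ry1 change was 0.16, though its sum was below the litter's other gates in 8 of 8 litters. The Tafa4 and Calca calls were kept in every alternative fitted. These were 20 for the Tafa4 gate, with changes from 2.15 to 4.87, and 19 for the Calca gate, from -5.63 to -3.60. None of them held skin type fixed for these gates. The gates held 9 glabrous and 14 hairy cells (Tafa4), 3 and 9 (Calca), 53 and 11 (Nefh) and 26 and 7 (Nefh-Calca). The part of skin type in these calls was not tested. Of the 7 members, 3 were called in the Tafa4 gate (P2ry1, P2rx3 and P2rx2, all higher) against 16.9% of the 13653 genes tested, or 8.98% higher. In the Calca gate 2 were called (P2ry1 and P2rx3, both lower) against 13.5%, or 7.68% lower. The contrasts share their sums, so calls in different gates are not independent.

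The Tafa4 gate was itself mixed for P2ry1. Clustering of all cells without the purinergic genes put 15 of the 23 cells in cluster 7, where P2ry1 ran from 98.2 to 514 CPM, and 8 in clusters 4 and 5, where it ran from 2.5 to 64.5 CPM. The 2 ranges did not overlap, and how many other genes separate these clusters was not counted. P2rx5 was detected in 1 of the 15 cells and in 4 of the 8. Of those 4, 3 were the 3 cells of cluster 5 (11 to 30 CPM), and 1 was among the 5 cells of cluster 4 (2.65 CPM). The 15 cells were 13 hairy and 2 glabrous, and the 8 cells 1 hairy and 7 glabrous. Plate followed the same split: all 8 cells lay on plate 1, and the 13 cells of this gate on plate 2 were all in cluster 7. The part of plate in the P2ry1 difference was not tested. Leaving out the 9 Tafa4-gate cells over the Nefh or Mrgprd cut, a choice made after seeing the data, raised the P2ry1 change to 4.87 ± 0.36. The number of members called in this gate became 5, with P2rx5 (-3.73 ± 0.97) and P2ry2 (-2.61 ± 0.69) lower, against 15.7% of 13489 genes. That fit had Tafa4 sums of at least 2 cells from litters L, M, O and P_Q only, all on plate 2.

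**Figure D2:**
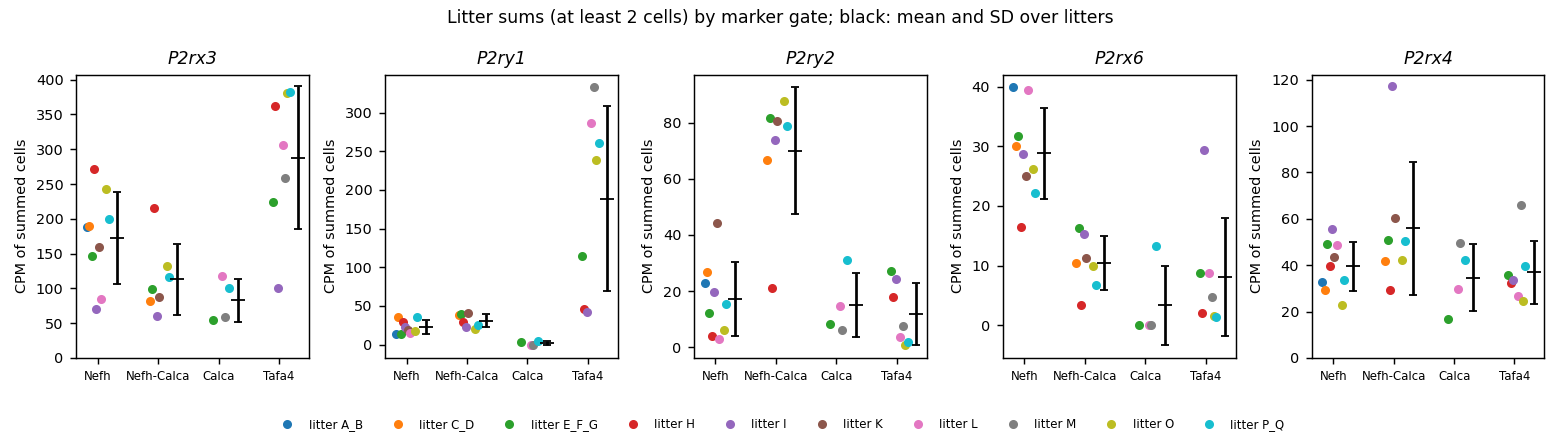
CPM of summed cells for 5 of the receptor genes in 4 marker gates, with 1 point per litter (at least 2 cells) and the mean and SD over litters in black. All 7 Tafa4 sums of P2ry1 lie above every sum of the other gates, and 6 of the 7 Nefh-Calca sums of P2ry2 lie above 66 CPM while litter H is at 21.1.

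P2rx3 (chr2:84998583-85037462, minus strand), the ATP-gated channel subunit of small sensory neurons, followed the same order at its ends but with smaller differences. The median per cell was 277 CPM in the Tafa4 gate, 182 in the Mrgprd gate, 116.2 in the Nefh gate, 77.7 in the Nefh-Calca gate and 55.8 in the Calca gate. Large myelinated neurons were thus not free of it: all 65 Nefh-gate cells had at least 1 count, from 3.85 to 632 CPM. Litter sums were 288 ± 102.95 CPM in the Tafa4 gate (SD, n = 7), 173 ± 66 in the Nefh gate (n = 9), 113.1 ± 51 in the Nefh-Calca gate (n = 7) and 83 ± 30.9 in the Calca gate (n = 4). These ranges overlap between gates: the Tafa4 sums began at 100 CPM (litter I) and 224 CPM (E_F_G), and the Nefh sums reached 271 CPM. Within litters the Tafa4 sum was above the other gates in 7 of 7.

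The Tafa4 gate was higher in P2rx3 by 1.25 ± 0.15 (edgeR adjusted p = 1.75e-05, called in 20 of 20 alternatives) and the Calca gate lower by -0.996 ± 0.23 (adjusted p = 0.0075, called in 17 of 19). Without litter E_F_G the Calca value was -0.85 with an edgeR adjusted p of 0.0999. In pairs of gates, P2rx3 was lower in the Calca gate than in the Nefh gate by -0.92 ± 0.25 (edgeR adjusted p = 0.0143) and lower in the Nefh gate than in the Tafa4 gate by -0.77 ± 0.19 (adjusted p = 0.00815). The Calca and Nefh-Calca gates, neighbours in this order, were not called apart (-0.38 ± 0.26, edgeR adjusted p = 0.387), nor were the Nefh-Calca and Nefh gates (Nefh minus Nefh-Calca 0.54 ± 0.18, edgeR adjusted p = 0.0627). The P2rx3 model shares 51 exon bases with Ssrp1 on the other strand, and the library kit does not mark strand.

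P2rx2 (chr5:110339812-110343212, minus strand), whose product pairs with that of P2rx3, was low throughout and its highest cell reached 30.7 CPM. It was detected in 14 of 23 Tafa4-gate cells (60.9%, 38.5 to 80.3), 4 of 9 Mrgprd-gate cells, 22 of 65 Nefh-gate cells (33.8%, 22.6 to 46.6), 4 of 12 Calca-gate cells and 4 of 33 Nefh-Calca-gate cells (12.1%, 3.4 to 28.2). Only the Tafa4 gate had a median above 0 (8.63 CPM). Its 7 litter sums averaged 8.27 ± 6.03 CPM, from 0 in litter H to 19.4 in litter M, while the 7 Nefh-Calca sums averaged 0.192 ± 0.22 CPM with 3 at 0. The edgeR fit placed P2rx2 higher in the Tafa4 gate by 2.52 ± 0.76 (adjusted p = 0.0286) and lower in the Nefh-Calca gate by -3.69 ± 1.00 (adjusted p = 0.0323).

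These calls for P2rx2 rest on few counts. The Tafa4 call was lost without litter L (1.97, edgeR adjusted p = 0.0974), M (2.20, 0.0679), O (2.61, 0.0565) or P_Q (2.67, 0.0773), and with the marker cuts doubled (1.43, 0.37). With limma voom it was 2.47 (adjusted p = 0.0786). The Nefh-Calca call was lost without litter C_D (-3.62, 0.0652), E_F_G (-2.80, 0.199), O (-3.55, 0.0815) or P_Q (-4.11, 0.0792), and with single-cell sums (-3.68, 0.0698). With limma voom it was -2.74 (adjusted p = 0.104). A sum at 0 makes the fitted change depend on the prior count, so neither value is a bound on the fold.

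P2rx6 (chr16:17561885-17577800, plus strand) encodes a subunit that forms few channels on its own and joins other subunits. Its median per cell was highest in the Nefh gate. All 65 Nefh-gate cells had it, at a median of 27.7 CPM (1.18 to 61.1), and 30 of 33 Nefh-Calca-gate cells at 9.57 CPM. Medians were 2.84 CPM in the Tafa4 gate and 0 in the Mrgprd and Calca gates. Of 12 Calca-gate cells 2 had it (16.7%, 2.1 to 48.4), and 3 of the 4 Calca sums were at 0. The 9 Nefh sums ran from 16.4 to 39.9 CPM (mean 28.8 ± 7.62, SD), above all 7 Nefh-Calca sums (3.42 to 16.3), while litter I at 29.4 in the Tafa4 gate fell within the Nefh range and the other Tafa4 sums did not exceed 8.81.

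P2rx6 was higher in the Nefh gate by 2.13 ± 0.54 (edgeR adjusted p = 0.00865) and in 8 of 8 litters. It was the 1 member of 7 called there, against 20.5% of all genes tested, or 12.2% higher. The call was kept in 20 of 21 alternatives and lost with sums of at least 3 cells (1.37, edgeR adjusted p = 0.0783). Its size depended on litter P_Q, the 1 litter with P2rx6 in its Calca sum: it was 4.34 without that litter and 1.84 to 2.36 without any other. In the Calca gate itself P2rx6 was not called (-1.92, edgeR adjusted p = 0.181), and without litter P_Q, when every Calca sum is at 0, it was called at -8.70 (adjusted p = 0.00143), a value that depends on the prior count. Without litter P_Q it was also called in the Nefh-Calca gate (2.53, edgeR adjusted p = 0.0475), against a mean that included those Calca sums at 0. This value depends on the prior count too. Within litters, the Nefh-Calca sum of P2rx6 was below the other gates in 6 of 7. Set against the Calca gate alone, the Nefh gate was the higher (Calca minus Nefh -3.03 ± 0.99, edgeR adjusted p = 0.0374). P2rx6 was not called between the Nefh and Nefh-Calca gates or between the Nefh and Tafa4 gates. P2rx6 also rose with the number of detected genes per cell (Spearman 0.44 over 150 cells, as a description). Median detected genes were 14404 in the Nefh gate, 13782 in the Tafa4 gate and 13262 in the Calca gate, and their part in the P2rx6 difference was not tested. The P2rx6 model overlaps Slc7a4 on the other strand over 554 exon bases, and reads there cannot be told apart.

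P2ry2 (chr7:100996568-101012866, minus strand), the ATP and UTP receptor gene, had its highest gate median in neurons with both Nefh and Calca. All 33 cells of that gate had it, at a median of 71 CPM (18.8 to 116.8), against 58.6 CPM in the Mrgprd gate, 9.07 in the Calca gate, 6.47 in the Nefh gate and 5.48 in the Tafa4 gate. The 7 Nefh-Calca sums had a median of 79 CPM (mean 70.1 ± 22.6, SD), with litter H alone at 21.1 and the others from 66.9 to 87.6. The 9 Nefh sums ran from 3.03 to 44.2 CPM (mean 17.1 ± 13.2). Without litter H, the Nefh-Calca sums lie above every sum of the Nefh, Calca and Tafa4 gates. The Nefh gate was itself mixed for P2ry2. In the 6 litters with Nefh-gate cells of both skin types, its median was 47.8 CPM in cluster 1, 60.3 in cluster 2 and 26.1 in cluster 8. In clusters 3, 5 and 6 it was 3.34, 0 and 5.36 CPM.

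The Nefh-Calca gate was higher in P2ry2 by 1.97 ± 0.47 (edgeR adjusted p = 0.0168) and in 7 of 7 litters. The call was lost without litter E_F_G (1.82, adjusted p = 0.106) or P_Q (1.94, 0.0558) and kept in 18 of 21 alternatives. Directly, the Nefh gate was below the Nefh-Calca gate by -2.31 ± 0.53 (edgeR adjusted p = 0.00855), and the Nefh-Calca gate above the Tafa4 gate by 2.10 ± 0.61 (adjusted p = 0.0251). Of the 7 members 3 were called in the Nefh-Calca gate (P2ry2 and P2rx4 higher, P2rx2 lower) against 7.01% of genes tested.

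P2rx4 and P2rx5 completed the channel subunits. P2rx4 (chr5:122707544-122729738, plus strand), a subunit of slowly desensitizing channels, had medians of 26.1 (Mrgprd) to 41.5 CPM (Nefh-Calca) per gate, the smallest ratio between gates of the 7 genes. Its Nefh-Calca sums averaged 55.9 ± 28.7 CPM (SD, n = 7) and its Nefh sums 39.5 ± 10.7 (n = 9), and the edgeR fit called the Nefh-Calca gate higher by 0.76 ± 0.20 (adjusted p = 0.0255). Litter I stood apart at 117.2 CPM, and 1 of its 6 cells held 464 CPM. That call was lost without litter I (0.56, adjusted p = 0.124), E_F_G (0.70, 0.124), K (0.72, 0.0566) or O (0.73, 0.0723), and it was kept in 12 of 21 alternatives.

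P2rx5 (chr11:73160421-73172685, plus strand) was detected in 31 of 33 Nefh-Calca-gate cells (median 9.89 CPM), 53 of 65 Nefh-gate cells (5.68 CPM), 7 of 12 Calca-gate cells, 3 of 9 Mrgprd-gate cells and 5 of 23 Tafa4-gate cells (21.7%, 7.46 to 43.7). The 7 Nefh-Calca sums ran from 9.13 to 25.5 CPM, and 4 of the 7 Tafa4 sums were at 0. Against the mean of the other gates it missed the threshold in both, with -2.13 ± 0.74 in the Tafa4 gate (edgeR adjusted p = 0.0538) and 1.98 ± 0.67 in the Nefh-Calca gate (adjusted p = 0.0839). Both were called by DESeq2 (adjusted p = 0.00184 and 0.0103) and limma voom (0.0118 and 0.0271), and without litter I (-3.04, edgeR adjusted p = 0.0138, and 2.55, 0.0455). In all, 7 of 20 alternatives called the Tafa4 value and 7 of 21 the Nefh-Calca value. Between these 2 gates P2rx5 was called, higher in the Nefh-Calca gate by 3.08 ± 0.85 (edgeR adjusted p = 0.0185). In that pair 6 of the 7 members were called, against 14.8% of genes tested: P2rx2, P2rx3 and P2ry1 lower in the Nefh-Calca gate, and P2rx4, P2rx5 and P2ry2 higher. In the other pairs of gates 3 members were called between Calca and Nefh (P2rx3, P2rx6 and P2ry1, against 19.8% of genes) and 2 in each of the rest. These were P2rx4 and P2ry1 between Calca and Nefh-Calca (8.35% of genes), P2rx3 and P2ry1 between Calca and Tafa4 (12.5%), P2rx2 and P2ry2 between Nefh and Nefh-Calca (9.73%) and P2rx3 and P2ry1 between Nefh and Tafa4 (19.7%). The pairs were added after the data had been seen, and each p was adjusted within its pair.

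**Figure D3:**
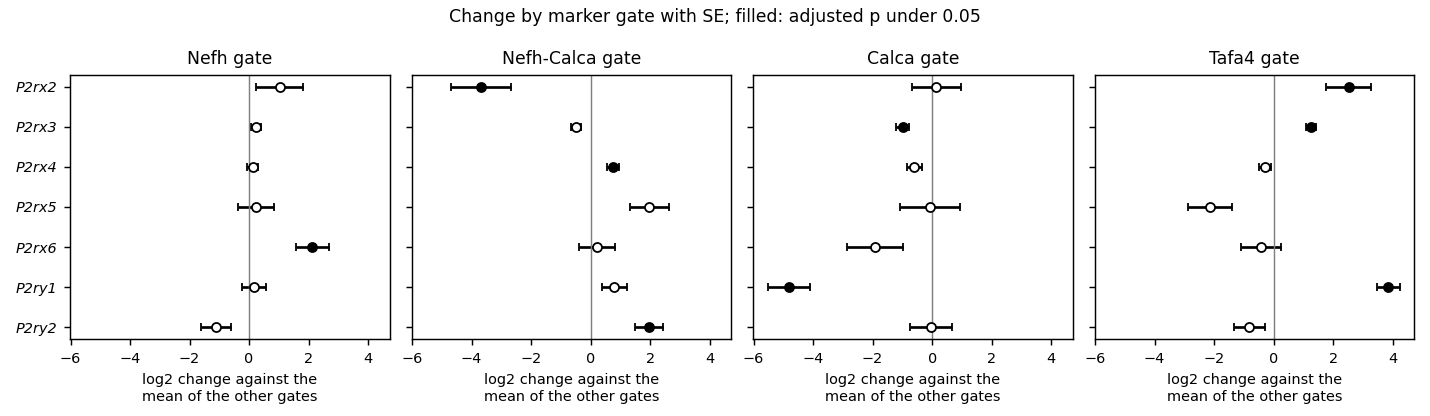
Log2 change of each receptor gene against the mean of the other gates, with its SE, in edgeR fits of 27 litter sums; filled points have an adjusted p under 0.05. P2ry1 lies at 3.85 in the Tafa4 gate and -4.81 in the Calca gate, and P2rx4 stays within 1 log2 unit of 0 in all 4 gates.

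The Mrgprd gate had sums of at least 2 cells in 2 litters only and entered no main test. Its 9 cells had high P2rx3 (median 182 CPM) and P2ry2 (58.6 CPM). In 8 of them P2rx3 lay between 99.2 and 524 CPM and P2ry2 between 17.3 and 65.8 CPM. In 1 hairy cell of litter P_Q all members but P2rx4 were at 0. That cell had 4360 detected genes, the fewest of the 150 cells, against a median of 14488 in the gate. With single-cell sums allowed, edgeR called 0 of the 7 members in this gate, with 0 at an unadjusted p of 0.05, against 0.474% of 13074 genes. With the marker cuts doubled it called 1, P2rx3 (1.28, edgeR adjusted p = 0.0221), against 0.862% of 14043 genes.

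Nefh-gate neurons were divided further by the highest of Ret, Ntrk3 and Ntrk2, growth factor receptor genes that mark kinds of A-fibre touch neurons, into 35, 14 and 16 cells. P2ry1 had a median of 34.1 CPM in Ntrk2-dominant cells, 15.2 in Ntrk3-dominant and 7.85 in Ret-dominant cells. The 3 litter sums of the Ntrk2 subgroup were 23.1 (E_F_G), 43.6 (I) and 80.7 CPM (P_Q), all above the 3 Ntrk3 sums (11.7 to 17.7) and the 6 Ret sums (8.43 to 19.1). The Ntrk2 subgroup was higher by 1.71 ± 0.29 (edgeR adjusted p = 0.0422), in 3 of 3 litters. P2ry1 was the 1 member of 7 called, against 1.06% of 13445 genes. The call rests on 12 sums of 57 cells: it was lost without litter E_F_G (1.98, adjusted p = 0.138), I (1.61, 0.247) or P_Q (1.51, 0.114). With single-cell sums allowed (20 sums of 10 litters) it was 0.93 (edgeR adjusted p = 0.416).

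P2rx2 and P2rx5 also varied among these A-fibre cells without passing the threshold. P2rx2 was detected in 11 of 14 Ntrk3-dominant cells (78.6%, 49.2 to 95.3), 6 of 16 Ntrk2-dominant cells (37.5%, 15.2 to 64.6) and 5 of 35 Ret-dominant cells (14.3%, 4.81 to 30.3). Its change in the Ntrk3 subgroup was 3.10 ± 1.29 (edgeR adjusted p = 0.576). P2rx5 had medians of 9.25 CPM in the Ntrk3 subgroup, 7.23 in the Ret subgroup and 0.562 in the Ntrk2 subgroup, where its change was -3.15 ± 0.75 (edgeR adjusted p = 0.119). P2rx3 in the Ntrk2 subgroup had a change of 1.19 ± 0.25 (adjusted p = 0.089). In the Ntrk3 and Ret subgroups edgeR called 0 of 7 members, with 3 and 2 at an unadjusted p under 0.05, against 0.357% and 0.402% of genes called and 8.31% and 9.13% at that unadjusted p.

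**Figure D4:**
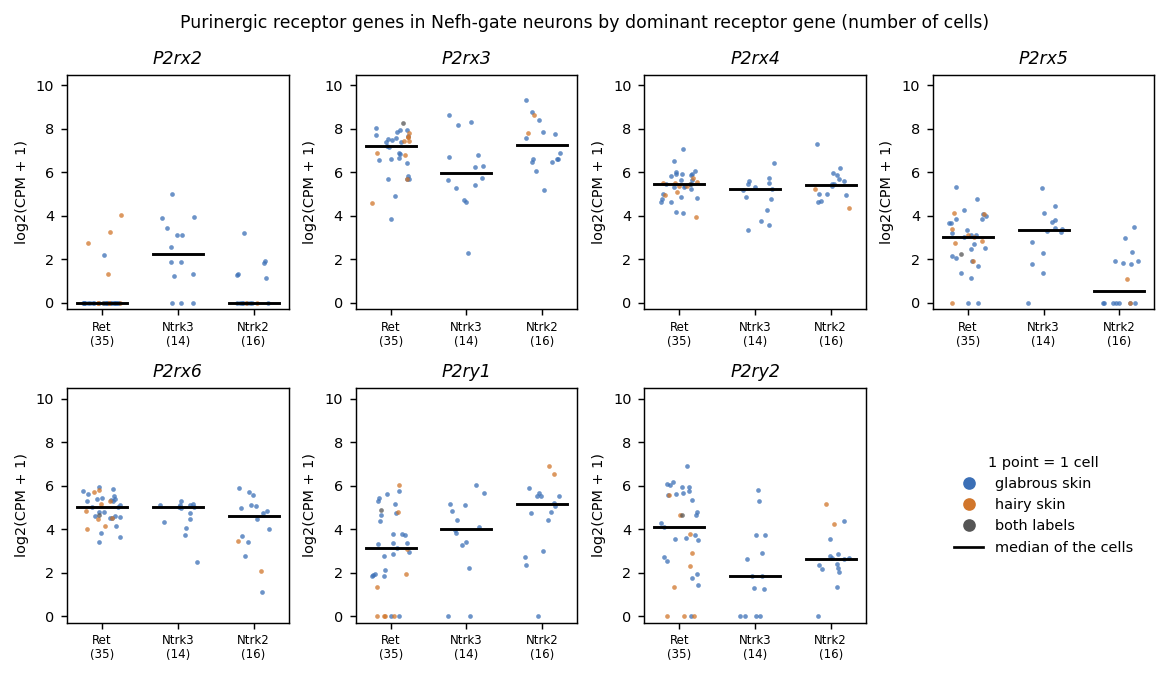
Level of each receptor gene as log2(CPM + 1) in the 65 Nefh-gate neurons, split by the highest of Ret, Ntrk3 and Ntrk2, with 1 point per cell and a black line at the median. P2rx2 is above 0 in 11 of 14 Ntrk3-dominant cells, and the P2ry1 median is highest in the Ntrk2-dominant cells.

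Other genes of purinergic signalling were taken from a list of 42 by role, of which 41 were in the table. In the Tafa4 gate 3 of 27 tested were higher and 1 lower, or 4 called against 16.9% of all genes. The higher genes were Acpp (4.59 ± 0.37, edgeR adjusted p = 1.69e-07) and Nt5e (3.31 ± 0.51), which encode enzymes that turn AMP outside the cell into adenosine, and the phospholipase C gene Plcb1 (1.14 ± 0.28). Plcb4, another phospholipase C gene, was lower (-0.88 ± 0.24). Acpp had a median per cell of 589 CPM in the Tafa4 gate, 277 in the Mrgprd gate and 6.83 in the Nefh gate.

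In the Nefh gate 2 of 27 tested pathway genes were higher and 6 lower, against 20.5% of all genes called. Higher was the nucleoside transporter gene Slc29a2 (2.06 ± 0.37), lower were Acpp (-2.67 ± 0.43) and the Gq family genes Gnaq (-0.93 ± 0.18) and Gna11 (-0.53 ± 0.10). The Nefh-Calca gate, with 7.01% of all genes called, had 0 higher and 3 lower: the adenosine receptor gene Adora1 (-1.34 ± 0.33), the nucleotidase gene Entpd3 (-1.28 ± 0.35) and Slc29a1 (-0.98 ± 0.23). The Calca gate, with 13.5% called, had 2 higher, Gnaq (0.77 ± 0.23) and Gna11 (0.44 ± 0.13), and 1 lower, Plcb1 (-1.89 ± 0.42). Among the remaining nucleotide receptors P2rx7 was seen in 83 cells and P2rx1 in 4 (at most 4.23 CPM), while P2ry12 was seen in 71, P2ry14 in 50 and P2ry6 in 35. P2ry10 had no count in any of the 150 cells. The pathway genes seen in most cells were Gnaq (98.7% of cells), Adk (97.3%), Gna11 (97.3%), Panx1 and Slc29a1 (96.7% each).

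The study asked how neurons of glabrous and hairy skin differ. Summed over all neurons of a litter, 7 litters had at least 2 cells of each skin type. P2ry1 ran from 10.6 to 34.8 CPM (median 27.1) in the glabrous sums and from 26.1 to 171 CPM (median 71.8) in the hairy sums, with the hairy sum above the glabrous one in 6 of 7 litters and below it in litter H. The means were 25.5 ± 8.32 and 83.5 ± 48.1 CPM (SD, n = 7). The log2 change, hairy over glabrous, was 1.53 ± 0.40, with an edgeR adjusted p of 0.242 over 12852 genes. P2rx5 (-1.07 ± 0.51), P2rx6 (-1.08 ± 0.53) and P2ry2 (-0.78 ± 0.54) were lower in the hairy sum of 6, 5 and 6 of 7 litters, and P2rx2 (1.03 ± 0.89) and P2rx3 (0.41 ± 0.25) higher in 5 and 4. P2rx4 changed by -0.22 ± 0.17. The edgeR test called 0 of the 7 members, with 1 at an unadjusted p under 0.05 (P2ry1, 0.0034), against 0.0934% of genes called and 9.94% at that unadjusted p. DESeq2 called 1 member, P2ry1 (1.54, adjusted p = 0.00469), against 2.62% of genes, and limma voom 0.

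**Figure D5:**
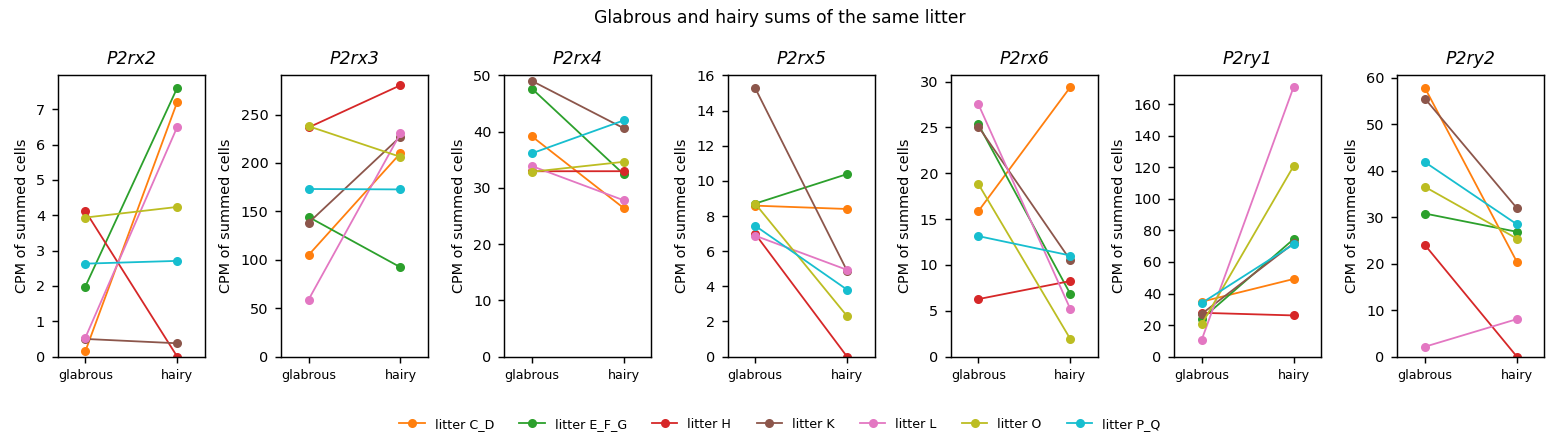
CPM of each receptor gene in the summed glabrous and the summed hairy cells of the same litter, for the 7 litters with at least 2 cells of each; a line joins the 2 sums of a litter. P2ry1 is higher in the hairy sum of 6 litters and lower in litter H, and the lines of P2rx4 cross without a shared direction.

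The skin types did not hold the same mix of neurons. The Tafa4 gate took 14 of the 45 hairy cells and 9 of the more numerous glabrous cells. C-fibre touch neuron markers (6 genes, with the gating gene Tafa4 among them) summed to a median of 414 CPM in the hairy sums (152 to 951). In the glabrous sums it was 59.6 CPM (31 to 133.1). Per cell of the Tafa4 gate, medians were 157 CPM for Zfp521, 164 for Gfra2 and 159 for Cdh9 (Nefh gate 18.7, 15 and 10.3). The other markers, Th and Slc17a8, were low in the Tafa4 gate, at 3.39 and 1.57 CPM (Nefh gate 2.72 and 0). Without Tafa4-gate cells (6 litters left), P2ry1 turned to -1.08 ± 0.57 (edgeR adjusted p = 0.929) and P2rx3 to -0.42 ± 0.47 (adjusted p = 0.931). Plate was uneven too, with 10 hairy and 85 glabrous cells on plate 1 and 35 hairy and 19 glabrous cells on plate 2. Within plate 1 (3 litters) P2ry1 changed by 0.72 ± 0.39 and within plate 2 (4 litters) by 2.26 ± 0.43, with edgeR adjusted p of 0.997 and 0.247. Schwann cell markers, all 6 detected, summed to a median of 3528 CPM in the hairy sums (1544 to 12993) and 1525 in the glabrous sums (1293 to 7715), and their part in these values was not tested.

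With the neuron type in the model, over 53 sums, edgeR called 0 of 6 members tested, with 0 at an unadjusted p under 0.05, against 0.0373% of 10728 genes. P2ry1 then differed by -0.09 ± 0.43 and P2ry2 by -0.86 ± 0.47, both with an edgeR adjusted p of 1. P2rx2 did not pass the filter on low counts. Several sums of 1 litter enter that model as separate units, which makes its p-values too small.

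Within the Nefh gate alone, 6 litters had cells of both skin types (35 glabrous and 10 hairy cells). P2ry2 ran from 5.64 to 52.6 CPM (median 25.7) in the glabrous sums and from 0 to 20.4 (median 8.19) in the hairy sums, and was lower in the hairy sum of 6 of 6 litters. Its change was -1.83 ± 0.51 (edgeR unadjusted p = 0.00465, adjusted p = 0.213), and the 2 ranges overlap. P2rx3 changed by -0.61 ± 0.40, P2rx6 by -0.07 ± 0.29 and P2rx4 by 0.19 ± 0.28. The test called 0 of 6 members, with 1 at an unadjusted p under 0.05, against 0.406% of 10837 genes called and 9.66% at that unadjusted p. Hairy sums held 1 to 3 cells each. The 10 hairy cells lay in clusters 3 (8 cells) and 6 (2 cells), whose Nefh-gate cells in these litters had P2ry2 medians of 3.34 and 5.36 CPM. Clusters 1 and 2 held 5 of the glabrous cells each and 0 hairy cells, with P2ry2 medians of 47.8 and 60.3 CPM. The part of this uneven mix in the P2ry2 difference was not tested.

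Tafa4-gate cells of the skin types differed in P2ry1, but the litters were nearly separate. The 9 glabrous cells had a median of 42.5 CPM (2.5 to 304) and the 14 hairy cells of 290 CPM (25.7 to 514). In litter E_F_G the hairy cell had 302 CPM and the 3 glabrous cells 23.8, 42.5 and 48.9 CPM. In litter H the order was turned, with 25.7 CPM in the hairy and 64.5 in the glabrous cell, and in litter M the glabrous cell (304 CPM) lay among the 3 hairy cells (197 to 514). P2ry2 showed the other order in this gate, detected in 9 of 9 glabrous cells (median 15.2 CPM) and 6 of 14 hairy cells. No test of skin type was fitted within this gate.

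Age was compared between litters, in the glabrous cells of 2 litters at day 4 and 7 at day 5. Member changes lay between -0.62 (P2ry2) and 0.46 (P2rx2) on the log2 scale, all with an edgeR adjusted p of 1. The test called 0 of 7 members, 0 at an unadjusted p under 0.05 and 0 by DESeq2, against 0% of 15185 genes. The interaction of skin type and age, added after the data had been seen, called 0 of 7 as well, with 0 at an unadjusted p under 0.05, against 0% of 12852 genes.

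Across the 150 cells, each member was ranked against 17005 genes seen in at least 30 cells by the Spearman correlation of log2(CPM + 1). These points share litters, plates and neuron types, so the values are descriptions. P2ry2 went most closely with Capn5 (0.780), Tspan2 (0.775) and Mgll (0.763). P2rx6 followed the sodium channel gene Scn1a (0.753), the light neurofilament gene Nefl (0.752) and Lgi3 (0.750). P2ry1 went with D130009I18Rik (0.657), Dok4 (0.655) and Gm37035 (0.655), and the last lies antisense over P2ry1 with 992 shared exon bases, so reads of the pair cannot be told apart. P2rx5 was closest to 6330403K07Rik (0.644), Map7d2 (0.634) and Ncdn (0.630), and P2rx3 to Sdcbp (0.636), Syn1 (0.622) and Vcp-rs (0.600). P2rx2 had weaker partners in Dgkk (0.490), Aldh3b1 (0.476) and Trpc4 (0.475), as had P2rx4 in Aspm (0.368), Rab29 (0.366) and Olfml2b (0.363). Among the members themselves the closest pair was P2rx3 and P2ry1 (0.45 over all cells, 0.14 within the Nefh gate and 0.39 within the Tafa4 gate).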

How the data were processed

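Single-cell Smart-seq libraries were made with Nextera XT from cDNA of 5 synthesis batches, per the labels' protocols. Per the submitters' processing notes, FastQC, cutadapt, Salmon and the mm10 build were used, with versions, annotation, transcript-to-gene step and length scaling not given in the sources used here. In the authors' deposited table the values are expected counts that are all whole and are raw rather than scaled to each library, and 19341 genes had no count. CPM used the raw totals of each cell, and the pseudocount on the log2 scale was 1.

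Expected counts were summed per litter and condition and tested in R 4.3.3 by edgeR 4.0.16, with limma 3.58.1 for voom: TMM scaling, filterByExpr, a quasi-likelihood F-test with litter as a block, and Benjamini-Hochberg adjustment over all genes tested, with calls at 0.05. The sums were of at least 2 cells, except for skin type with neuron type in the model and skin type within the Nefh gate, where 1 was enough. Gates needed at least 3 litters. The labels name the litter, so it pairs the skin types. As a check, the centred glabrous and hairy sums of a litter correlated at -0.08 in litter L, -0.02 in C_D, 0.07 in O, 0.09 in E_F_G, 0.18 in P_Q and 0.26 in both H and K. Cells of litter K lay on both plates. Nothing says whether cells of a litter came from 1 animal.

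Clustering used scanpy 1.11.5 (2000 variable genes, 20 components, 10 neighbours, resolution 1) without the purinergic genes. No doublet caller was run on single-cell libraries. Alternatives were DESeq2 1.42.0, limma voom, other filters, gates and cell minimums, single plates, glabrous cells only, no litter block and each litter left out. The members, gates and lists were chosen with earlier results of these data known. Named were all 7 members, pathway genes past the threshold (at most 4 per comparison, by smallest p), the 4 pathway genes seen in most cells (5 with a tie kept), the gate markers and the 3 most alike genes per member; pathway receptors beside these were named after their values were seen. Gene positions and exon lengths were taken from GENCODE models on mm10. The procedure was tested on simulated data with changes added to 200 genes.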

Additional observations from a re-analysis of the deposited data

Results flagged for a closer look

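In 10 of 49 groups of litter sums, 1 litter lay far from the others by the size of its gap. The cut for the gap assumes normally spread values of equal variance. These sums hold unequal numbers of cells and the groups share litters. The count of flagged groups therefore cannot be set against a chance rate. Litter I had the highest P2rx4 sum of the Nefh-Calca gate (117.2 CPM, 6 cells, the others from 29.1 to 60.5), the highest P2rx5 sum of the Tafa4 gate (14.1 CPM, the others up to 3.26) and the highest P2rx6 sum there (29.4 CPM, the others from 1.37 to 8.81). Its 4 Tafa4-gate cells were all glabrous. Litter M had the highest P2rx4 sum of the Tafa4 gate (65.8 CPM, the others up to 39.6).

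Litter H had 0 counts of P2rx5 in its 3 Nefh-gate cells, where the other litters had 5.16 to 9.86 CPM, and the lowest P2ry2 sum of the Nefh-Calca gate (21.1 CPM from 2 cells, the others from 66.9 to 87.6). Litter K had the highest glabrous P2rx5 sum (15.3 CPM, the others from 6.88 to 8.71) and the highest P2ry2 sum of the Ret-dominant cells (44.2 CPM, the others from 20.4 to 27.9). Litter P_Q alone had P2rx6 in its Calca-gate sum (13.3 CPM, 26 counts, the others at 0), and litter C_D had the highest hairy P2rx6 sum (29.4 CPM from 2 cells, the others up to 11).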

How the results depend on the processing

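Values of single members kept their sign and their side of the threshold in 938 values under alternatives. Another 84 values that were called in neither fit changed sign, 35 became called, 31 were no longer called and 1 reversed. P2ry1 and P2rx3 in the Tafa4 gate, P2ry1 in the Calca gate and P2rx6 in the Nefh gate, the last with 1 exception, were called throughout. No alternative held skin type fixed for the Tafa4 or Calca gate. P2rx6 in the Nefh-Calca gate reversed to -1.27 with glabrous cells only, where the Nefh gate was the only gate left to compare with. The number of members called for skin type over all neurons was 0 and became 1 with DESeq2 and 1 with no filter on low counts, while all genes called went from 12 to 337 and 342, to 29 with limma voom and to 1 with single-cell sums. In the Calca gate 1 member was called with sums of 1 cell and 3 with DESeq2, limma voom or no filter, against 2. In the Nefh gate 2 were called with DESeq2, with no filter and in glabrous cells, and 0 with sums of 3 cells, while all genes called fell from 2800 to 1090. In the Nefh-Calca gate 0 were called with sums of 1 cell (243 genes, against 957) and 5 with DESeq2 (1617 genes), no filter (1634 genes) or doubled cuts. The stricter Tafa4 gate, with sums from litters L, M, O and P_Q only, gave 5. Leaving out 1 litter at a time gave 1 to 3 members in the Calca gate, 1 to 2 in the Nefh gate, 0 to 3 in the Nefh-Calca gate, 2 to 4 in the Tafa4 gate, 0 to 1 in the Ntrk2 subgroup and 0 in the other comparisons. The causes of these shifts were not tested.

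With no litter block, the replicate pairing was ignored: the Ntrk2 subgroup then had 2 members called and the Ret subgroup 1, against 1 and 0, the Calca gate 2, the Nefh gate 1, the Nefh-Calca gate 4, the Tafa4 gate 3, and the skin comparisons and the Ntrk3 subgroup 0. The Ntrk2 subgroup had 0 with single-cell sums. With at least 5 counts required, detection fell to 16.7% for P2rx2, 43.3% for P2rx5, 64.7% for P2rx6, 72% for P2ry1 and 63.3% for P2ry2. The Calca and Tafa4 gates and the Ntrk2 subgroup had too few litters for a fit in glabrous cells, and the Calca gate for one with sums of 3 cells. At this depth a gene under a few CPM gave 0 to 3 counts in a cell, so P2rx2 and P2rx5 at 0 are not detected rather than absent.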

Other observations

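Among the 8 expression clusters, made without the purinergic genes, the receptor genes were arranged much as among the gates. Cluster 7 (16 cells, 13 of them hairy, 15 in the Tafa4 gate) had median levels of 290 CPM of P2ry1 and 289 CPM of P2rx3. Cluster 3 (19 cells, 18 in the Nefh gate, Ret at a median of 638 CPM) had P2rx6 at 37.7 CPM, P2ry1 at 2.55 CPM and P2ry2 at 3.86 CPM. Cluster 1 (32 cells, 19 in the Nefh-Calca gate) had P2ry2 at 66 CPM and P2rx6 at 15.9 CPM. Cluster 5 (17 glabrous cells, Ntrk3 at a median of 508 CPM) was the one other than cluster 7 with a median of P2rx2 above 0, at 4.99 CPM, and its cells held a median of 7 of the 7 members. P2rx4 medians ran from 28.8 (cluster 4) to 47.7 CPM (cluster 1).

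In the 8 ungated cells, 1 cell held 141.7 CPM of P2rx6, the highest value of that gene in any of the 150 cells. P2rx4 had a median of 34.8 CPM there, within its range in the gates.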
